A study of Mus musculus with 19 samples.

Results

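Ischemia was the only labelled difference between 8 of the 19 muscle arrays of the study: 4 scramble ischemic arrays and 4 scramble non-ischemic arrays, each a single-colour Illumina bead array hybridized with gastrocnemius RNA of CD1 mice aged 2 months. All 8 samples, chosen by their labels alone, carry a scrambled locked nucleic acid oligonucleotide of 15 nucleotides, given by tail vein at 12 mg/kg, in a volume of 200 µl, 2 days ahead of surgery. In the ischemic group the left femoral artery was dissected and the muscle was taken 3 days after surgery, and the non-ischemic group is labelled as control muscle at the same time. The labels do not say whether the control muscle is that of the other limb of the same mice or whether it had sham surgery. Nor do they state that each replicate is an animal of its own, and the spread behind every p-value is that of these samples and may be technical. The remaining arrays hold ischemic muscle (4) and non-ischemic muscle (4) after an oligonucleotide complementary to miR-210 in place of scramble, and untreated muscle (3), which received no oligonucleotide.

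Loss of femoral artery flow in the mouse starves the lower limb of oxygen and glucose. Fibres of the calf then lose their energy supply, and many die. Neutrophils and monocytes enter the damaged muscle, clear debris as macrophages, and muscle stem cells, called satellite cells, divide and fuse into new fibres while fibroblasts and vessel cells rebuild the matrix and the vasculature. Clearance and cell division overlap in the first days after such an injury. A bulk array measures all these cells together, so fewer cells of a type and less RNA per cell cannot be told apart.

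The scramble oligonucleotide is the treatment that both groups share, and its sequence is shown with that of the miR-210 inhibitor because it defines what scramble means here. Capitals mark the longest run of each oligonucleotide that is complementary to mature miR-210-3p, which is 4 nucleotides for scramble and all 15 nucleotides for the inhibitor.
scramble: cgtctAGCCacctag
anti-miR-210: GCTGTCACACGCACA
mmu-miR-210-3p: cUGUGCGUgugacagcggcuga
The oligonucleotides are written 5′ to 3′ as DNA letters. The microRNA is from RefSeq and maps to chr7:141221407-141221428 on the minus strand of GRCm38.p6. Its capitals mark the seed, bases 2 to 8. The probes do not measure the mature microRNA.

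The groups separated by brightness and along the first principal component, and overlapped in the share of probes detected. The deposited mean intensity over all probes was 171.7, 183.9, 136.2 and 123.6 on the ischemic arrays, against 230.4, 203, 232 and 240.2 on the non-ischemic arrays, in the order of replicates 1 to 4, which is kept for all values by array. The ischemic arrays were the dimmer ones (153.9 ± 28.6 against 226.4 ± 16.2, SD, n = 4 each; two-sided exact permutation test, p = 0.0286, which is the lower limit of the design). Between 32.13% and 37.85% of probes were detected per ischemic array and between 33.78% and 35.03% per non-ischemic array, where detected means a detection p under 0.05 against negative control beads. Quantile normalization gave all arrays the same distribution, so every change is relative to the other genes of an array. The first principal component of the normalized values held 69.4% of the variance over the 19 arrays and placed the ischemic arrays between 70.03 and 93.33, against -58.46 to -49.58 for the non-ischemic arrays. Pairs of arrays correlated at 0.971 or more within the ischemic group, at 0.98 or more within the non-ischemic group and at 0.878 or less between the groups, over the genes tested.

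Marker genes were read on each array to check the tissue and to list other cells in it. The 10 markers of skeletal muscle fibres were detected on all 8 arrays. Their mean normalized log2 intensity was 12.46, 12.21, 12.23 and 11.91 on the ischemic arrays, against 13.11, 13.11, 12.99 and 13.02 on the non-ischemic arrays. Ckm, Tnnt3, Eno3, Casq1 and Myh4 fell, Acta1 rose, and Mylpf, Atp2a1, Pvalb and Actn3 were not called. Mylpf was called as lower under median scaling and as a mean over its probes. The calls of Ckm, Tnnt3 and Eno3 were lost under cyclic loess normalization, that of Acta1 under median scaling and with array brightness as a covariate, and that of Tnnt3 also with that covariate and without ischemic replicates 3 and 4. Of 10 monocyte and macrophage markers, 7 rose and none fell, with means of 7.64, 8.42, 7.56 and 7.53 on the ischemic arrays and 5.65, 5.51, 5.1 and 5.42 on the non-ischemic arrays; Itgam and Ccr2 were detected on at most 1 array of each group. Of 7 neutrophil markers tested, 5 rose (means of 6.75, 6.12, 6.56 and 7.61 on the ischemic arrays, against 5.16, 4.66, 4.91 and 5.16 on the non-ischemic arrays). Mpo and Cxcr2 were not called and were detected on at most 1 array of each group. Retnlg and Ltf, which rose, were detected on no non-ischemic array. Camp and Ngp were not detected on any of the 8 arrays, and Ly6g and Elane have no probe. Endothelial markers rose for 4 of 6 genes and adipocyte markers for all 4 tested, with adipocyte means of 6.93 to 8.27 on the ischemic arrays and 4.65 to 6.61 on the non-ischemic arrays. None of 3 T and NK cell markers and 1 B cell marker tested was called. The satellite cell markers Pax7, Myf5 and Calcr were not detected on any of the 8 arrays, while Vcam1 and Cdh15 rose, the call of Cdh15 being lost under median scaling. The part of these cells in the results on single genes was not tested.

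Non-ischemic replicate 1 also carried liver transcripts. The mean of 11 hepatocyte markers was 4.58, 4.5, 4.97 and 4.62 on the ischemic arrays, against 7.32, 4.45, 4.3 and 4.62 on the non-ischemic arrays, so that 1 array stood apart. None of these markers was called in the comparison. Results below are given from all 8 arrays, and the counts without this array and without the 2 dimmest ischemic arrays stand beside the overall count.

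About as many genes were called between ischemic and non-ischemic muscle as were left uncalled. The 14629 genes tested are those with a probe detected on at least 3 of the 19 arrays, each read by its brightest probe. Genes detected only in ischemic muscle pass this filter through those arrays, so shares of rising genes depend partly on the filter. Of the 14629 genes, limma called 7545 (51.6%) at an adjusted p under 0.05, of which 3946 (27%) were higher and 3599 (24.6%) lower in ischemic muscle. At least a 2-fold change was called for 2190 genes (15%) that rose and 1920 (13.1%) that fell. A change of at least 4-fold was called for 742 genes that rose and 536 that fell, and one of at least 16-fold for 73 that rose and 7 that fell. The 4 ischemic arrays lay above all 4 non-ischemic arrays for 3659 genes (25%) and below them for 3421 genes (23.4%). Among the genes that rose, 365 (9.25%) were detected on all ischemic arrays and on no non-ischemic array, and among those that fell, 136 (3.78%) were detected on all non-ischemic arrays and on no ischemic array. Without the array that carried liver transcripts and the untreated arrays, which carried them too, limma called 7065 genes, and without ischemic replicates 3 and 4 it called 6239. With median scaling in place of quantile normalization, 41.3% of the called genes were higher, against 52.3% here.

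The ischemic arrays also differed among themselves. The median within-group SD over genes was 0.25 for the ischemic arrays and 0.19 for the non-ischemic arrays, and it was larger in the ischemic group for 63.8% of genes. Among the 1920 genes that fell at least 2-fold, ischemic replicate 4 had the lowest ischemic value for 49.9% and replicate 3 for 31.3%, against 11.3% for replicate 2 and 7.45% for replicate 1. Among the 2190 that rose at least 2-fold, the highest value was on replicate 4 for 38.1%, on replicate 3 for 31.1%, on replicate 2 for 21% and on replicate 1 for 9.82%. Replicates 4 and 3 were also the dimmest ischemic arrays, and the part of brightness in this was not tested.

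**Figure D1:**
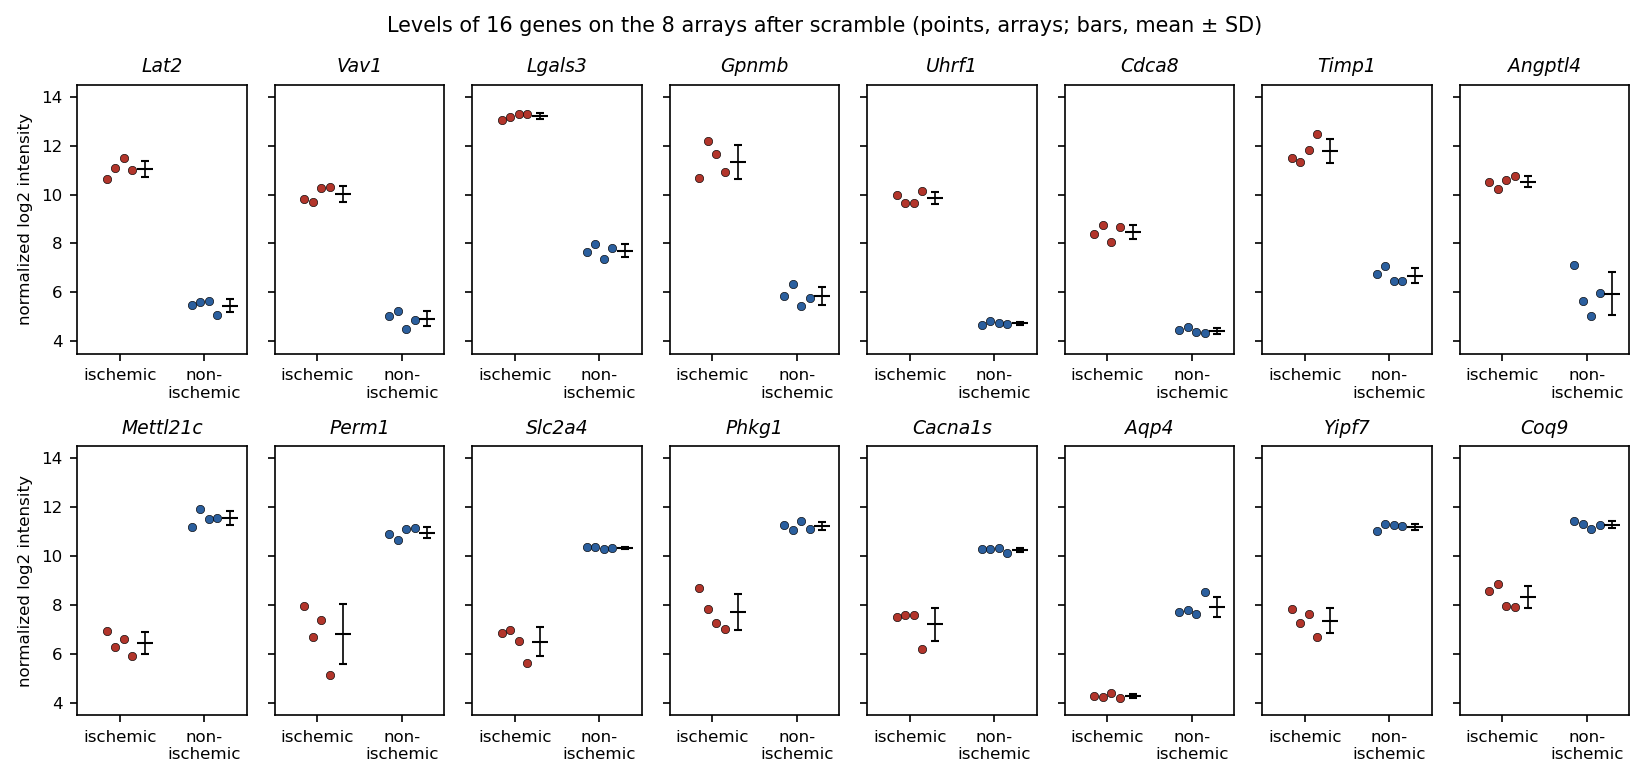
Normalized log2 intensity (y axis, no unit) of 16 genes on each of the 4 ischemic (left) and 4 non-ischemic arrays (right); points are arrays in the order of replicates 1 to 4, and bars give the mean and SD. In each panel the groups do not overlap, and Perm1 and Slc2a4 are lowest on ischemic replicate 4.

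Some of the largest changes in either direction show the scale of the response. Gene levels are normalized log2 intensities, and a change is the ischemic minus the non-ischemic mean on that scale, with its SE. Lgals3 had 13.03, 13.18, 13.29 and 13.30 on the ischemic arrays, against 7.67, 7.97, 7.37 and 7.82 on the non-ischemic arrays. The gene encodes galectin-3, a lectin that macrophages make in quantity. Every ischemic array was above every non-ischemic one (5.49 ± 0.29, with 4 arrays in each group, limma adjusted p = 3.51e-11). Gpnmb read 10.66, 12.17, 11.66 and 10.90 in ischemic muscle and 5.87, 6.33, 5.43 and 5.78 in non-ischemic muscle. Gpnmb, a membrane glycoprotein of macrophages that have taken up lipid or debris, changed by 5.50 ± 0.35, again without overlap; the changes of its 4 probes lay between 0.50 and 5.50. At the other end, Yipf7 stood at 7.86, 7.26, 7.64 and 6.69 on the ischemic arrays and at 11.01, 11.30, 11.26 and 11.23 on the non-ischemic arrays. This gene, whose product belongs to a family of Golgi membrane proteins, changed by -3.83 ± 0.24 (limma adjusted p = 2.8e-10). Ppp1r1a gave 6.96, 6.65, 7.71 and 5.66 in ischemic muscle, against 10.47, 10.44, 10.32 and 10.82 in non-ischemic muscle. Its product, protein phosphatase inhibitor-1, is controlled by cyclic AMP, and it changed by -3.77 ± 0.31. The groups did not overlap for either gene. H4c8, a replication-dependent histone gene, was among the lowest (-3.88 ± 0.29) while H2ac22, H2ac23 and H2ac7 were among the highest (6.31, 6.30 and 6.17); histone genes have near-identical copies, so which copy each of these probes reads is uncertain.

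**Figure D2:**
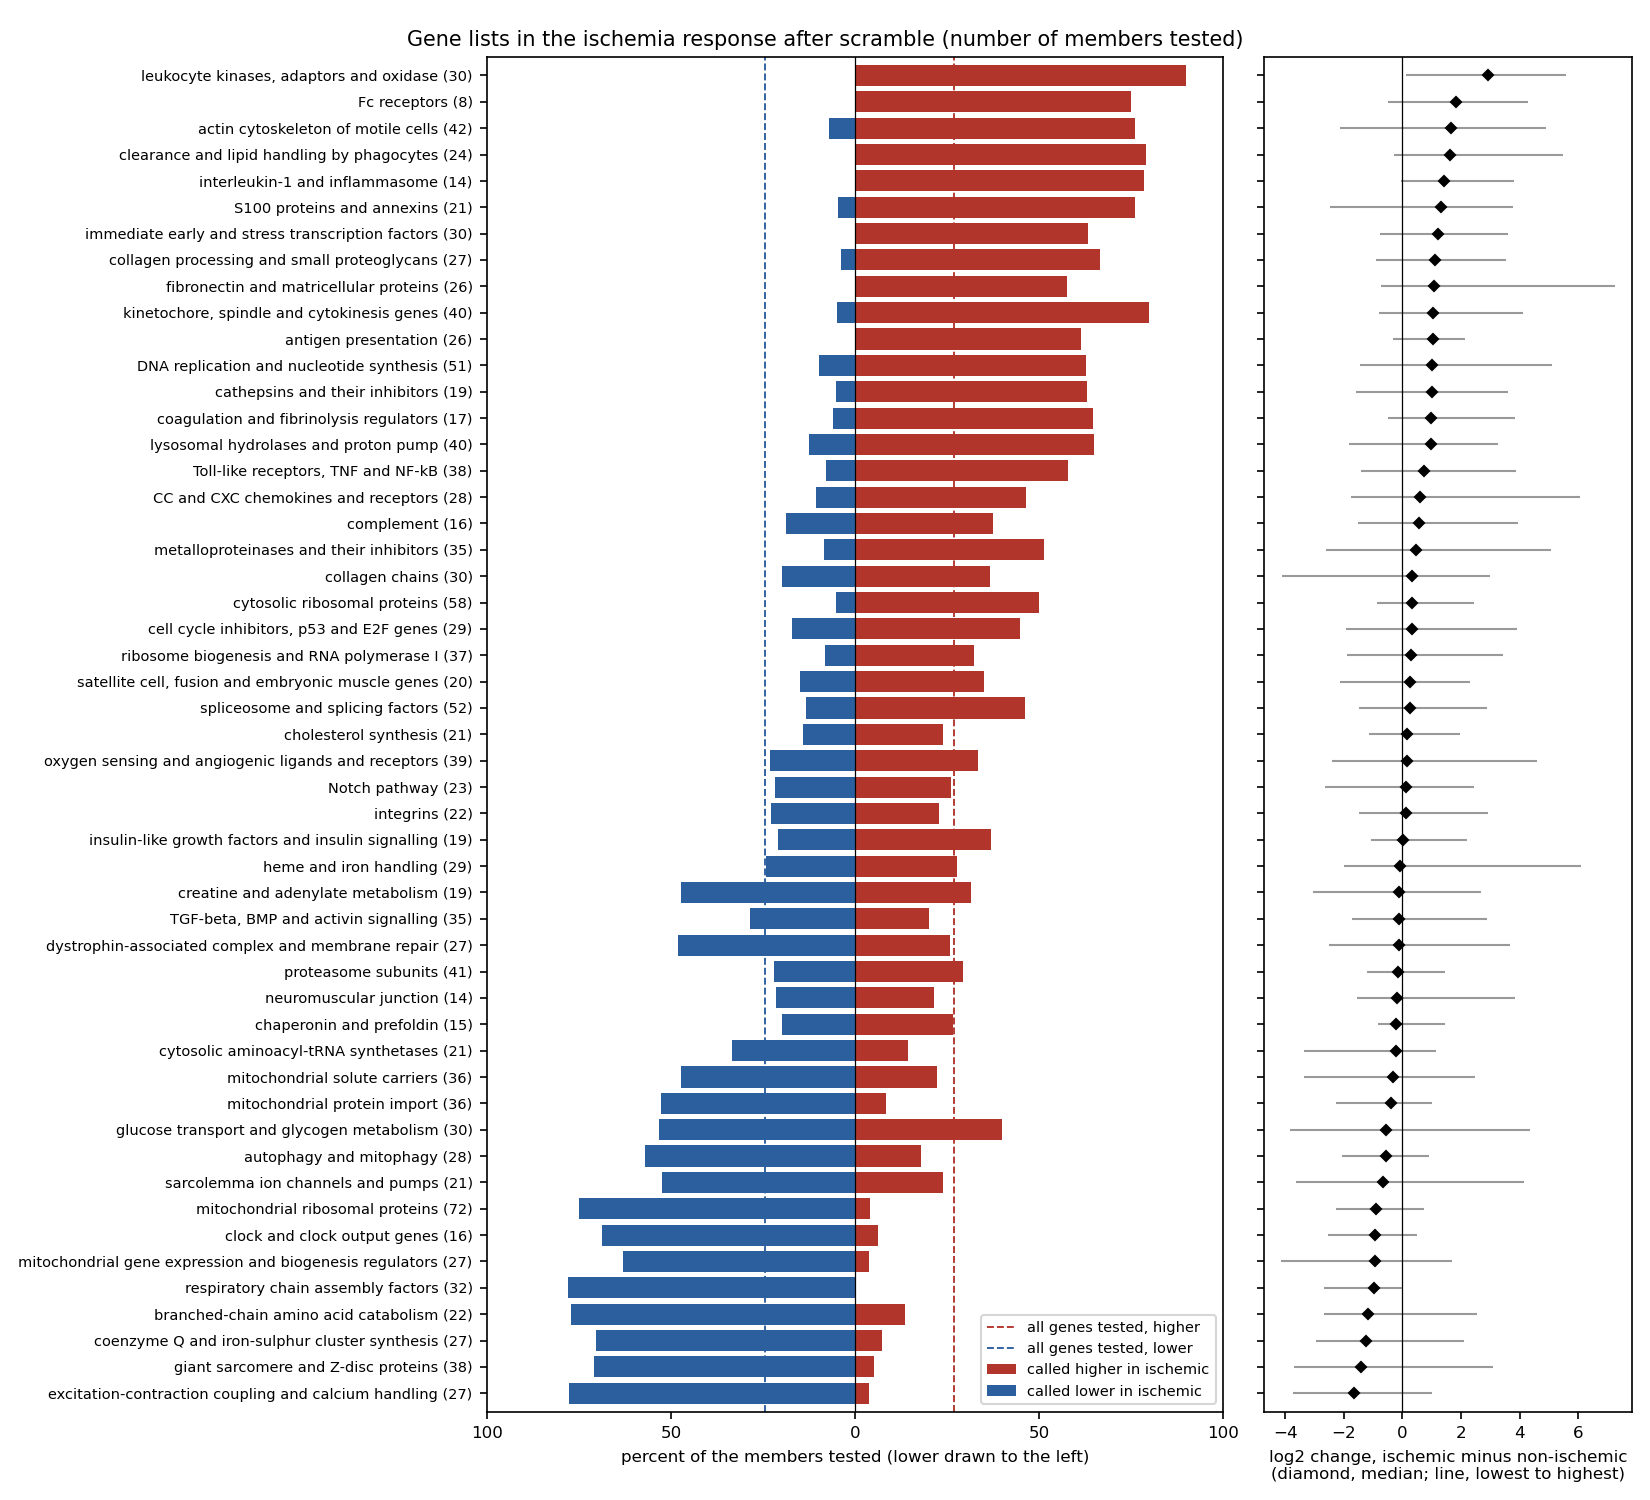
For 51 gene lists (rows, number of members tested in parentheses), the left panel gives the percent of members called higher (right of 0) and lower (left of 0) in ischemic muscle, with the percentages over all 14629 genes as dashed lines at 27 and 24.6. The right panel gives the median log2 change as a diamond and the lowest to highest change as a line; leukocyte kinases stand highest and excitation-contraction coupling genes lowest.

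The machinery that turns a nerve signal into calcium release fell most broadly among the muscle lists. Among 27 genes of excitation-contraction coupling and calcium handling, limma called 21 lower and 1 higher, and the median change was -1.64, against a median of 0.01 over all genes. Casq1 had 6.55, 5.99, 5.45 and 5.18 on the ischemic arrays, against 10.00, 9.55, 8.84 and 9.68 on the non-ischemic arrays. Casq1 encodes calsequestrin, the calcium buffer of the sarcoplasmic reticulum in fast fibres, and every ischemic array was below every non-ischemic one (-3.72 ± 0.40, limma adjusted p = 2.53e-07). Cacna1s read 7.50, 7.59, 7.57 and 6.21 in ischemic muscle and 10.28, 10.29, 10.31 and 10.11 in non-ischemic muscle. The dihydropyridine receptor subunit it encodes senses the voltage of the transverse tubule, and the gene fell by 3.03 on the log2 scale with no overlap. Jph1, a junctophilin that holds the tubule against the reticulum (-2.67 ± 0.26), and Stim1, a sensor of reticulum calcium (-2.51 ± 0.33), fell as well. Ryr1, the release channel of the reticulum, which was picked with its values known, fell (-2.18 ± 0.31). Atp2a1, the calcium pump of fast fibres, stood at 0.01 ± 0.18 and the cytosolic calcium buffer gene Pvalb at 0.17 ± 0.14. Neither was called here (limma adjusted p = 0.96 and 0.316), and cyclic loess called both higher (0.87 and 1.35). For genes uncalled here, calls with the sign reversed under other settings were not listed. Without background correction the list's median was -1.32, and the medians of 37 of the 51 lists were more than 1.5 times smaller in size, each with its sign kept.

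Channels and pumps of the fibre membrane fell more often than they rose. Of 21 genes, 11 fell and 5 rose (median -0.67), against 24.6% lower and 27% higher over all genes. Aqp4 stood at 4.28, 4.24, 4.38 and 4.18 on the ischemic arrays and at 7.72, 7.78, 7.63 and 8.53 on the non-ischemic arrays. This water channel gene of the fast fibre membrane was undetected on all 4 ischemic arrays and was at least 10.3-fold lower there (-3.65 ± 0.36). Kcnc1, a voltage-gated potassium channel (-3.52 ± 0.30), and the pump subunit genes Atp1b1 (-2.84 ± 0.40) and Atp1b2 (-2.31 ± 0.28) fell without overlap between groups. Fxyd5 gave 11.12, 11.62, 11.43 and 11.94 in ischemic muscle, against 7.64, 7.44, 7.31 and 7.17 in non-ischemic muscle. Fxyd5, which encodes dysadherin, a regulator of the sodium pump made by many cell types outside muscle, lay higher on every ischemic array (4.14 ± 0.23, limma adjusted p = 6.09e-11). Kcnn4, a calcium-gated potassium channel of leukocytes, was at least 3.11-fold higher.

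Genes of the nerve contact and of the membrane scaffold moved in both directions. Of 14 neuromuscular junction genes, 3 rose and 3 fell, not far from the 27% and 24.6% over all genes, and under median scaling 3 rose and 5 fell. Chrng had 9.15, 8.93, 8.55 and 7.81 on the ischemic arrays, against 4.57, 5.03, 5.02 and 4.46 on the non-ischemic arrays. This subunit makes the fetal form of the muscle acetylcholine receptor, which denervated fibres also make, and its arrays did not overlap (3.84 ± 0.44). Chrne read 5.42, 4.83, 4.26 and 4.56 in ischemic muscle and 6.04, 6.79, 6.16 and 6.37 in non-ischemic muscle. The adult subunit that replaces it in innervated muscle changed by -1.57 ± 0.27, with every ischemic array below the non-ischemic ones. Chrna1, the subunit common to both forms, rose (2.24 ± 0.27), as did Agrn, the gene of the clustering signal agrin (1.69 ± 0.30). Of 27 genes of the dystrophin complex and of membrane repair, 13 fell and 7 rose, the rises being close to the share over all genes. The sarcoglycan Sgca (-1.82 ± 0.18) and the muscle calpain Capn3 (-2.49 ± 0.28) were among those that fell. Myoferlin, Myof (3.66 ± 0.21), and annexin A2, Anxa2 (2.67 ± 0.18), both of which act in membrane repair, were among those that rose. Trim72, a repair protein of muscle fibres, was not called (0.08 ± 0.19, limma adjusted p = 0.761).

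Structural genes of the sarcomere fell broadly. Of 38 genes of giant sarcomere and Z-disc proteins, 27 fell and 2 rose (median -1.41). Myot stood at 7.02, 6.68, 6.37 and 5.06 on the ischemic arrays and at 10.16, 9.67, 9.76 and 10.15 on the non-ischemic arrays. Myot encodes myotilin, which ties actinin to the Z-disc, and the groups did not overlap (-3.65 ± 0.41). Myom3, an M-band protein (-3.17 ± 0.51), and Tmod1, which caps the thin filament (-2.90 ± 0.32), fell too. Ankrd1 gave 11.60, 11.37, 11.27 and 11.23 in ischemic muscle, against 8.41, 8.42, 8.27 and 8.05 in non-ischemic muscle. Ankrd1, a titin-bound protein that stretch and injury induce, was higher on every ischemic array (3.08 ± 0.45). Flnc, the muscle filamin, was not called (0.07 ± 0.25).

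Genes of muscle formation were mixed. Of 20 genes of satellite cells, fusion and embryonic muscle, 7 rose, 3 fell and 10 were not called. Over all genes 27% were higher and 24.6% lower. Under median scaling 4 of the list rose and 3 fell. Myl4 had 10.75, 10.75, 10.44 and 9.30 on the ischemic arrays, against 8.26, 8.41, 8.02 and 7.84 on the non-ischemic arrays. Myl4 encodes a myosin light chain of embryonic muscle and of the atrium, and the 4 ischemic arrays were the highest (2.18 ± 0.57, limma adjusted p = 0.00315). Myf6, the myogenic factor most abundant in adult fibres, was not called here (-0.38 ± 0.36) and was called lower under median scaling.

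Many muscle proteins exist in a muscle-enriched form and another form, made by many or other tissues or by fetal muscle. The last kind is Chrng, the fetal subunit paired with Chrne, which counts among the other forms that rose. A set of 28 such gene pairs was read together; it was drawn up with earlier results of these data known and holds genes outside the rule for named genes. All 28 muscle forms were tested and 25 of them fell, while of the 24 other forms tested 17 rose and 2 fell. In 14 of the 24 pairs with both forms tested the muscle form fell and the other form rose. The change of the other form lay above that of the muscle form in all 24 pairs, with medians of 1.72 for the other forms and -1.63 for the muscle forms.

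The pairs can be followed along the path of glucose. Slc2a4 read 6.86, 6.99, 6.52 and 5.64 in ischemic muscle and 10.36, 10.35, 10.29 and 10.34 in non-ischemic muscle. Slc2a4 encodes the insulin-responsive transporter GLUT4. Slc2a1 stood at 8.96, 9.37, 8.78 and 9.93 on the ischemic arrays and at 7.30, 7.02, 7.13 and 6.90 on the non-ischemic arrays. The ubiquitous transporter GLUT1 is its product. The changes of -3.83 ± 0.26 and 2.17 ± 0.29 were both without overlap between groups. Glycogen phosphorylase gave -2.68 ± 0.27 for the muscle form Pygm and 2.65 ± 0.43 for the liver form Pygl, and the catalytic subunit of phosphorylase kinase -3.52 ± 0.32 for Phkg1 and 1.29 ± 0.21 for Phkg2. The kinase's regulatory subunit gave -2.72 ± 0.28 for Phka1 and 1.85 ± 0.16 for Phka2. In the cytosolic steps, Pfkm (-1.30 ± 0.19) and Eno3 (-1.10 ± 0.20) fell, and Pfkl (2.71 ± 0.21) and Eno1 (2.42 ± 0.19) rose.

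Energy buffering and nucleotide transport showed the same arrangement. The sarcomeric mitochondrial creatine kinase gene Ckmt2 changed by -3.06 ± 0.50 and the ubiquitous mitochondrial form Ckmt1, undetected on all non-ischemic arrays, was at least 2.11-fold higher (1.40 ± 0.21). Ampd1, the AMP deaminase of muscle, changed by -2.11 ± 0.23 and Ampd3, the form of erythrocytes and other cells, by 2.04 ± 0.25. The adenine nucleotide carriers gave -1.31 ± 0.25 for Slc25a4 and 1.60 ± 0.18 for Slc25a5.

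Exceptions among the pairs were Cox7a1 and Cox7a2, subunits of cytochrome oxidase that both fell (-2.87 ± 0.26 and -1.79 ± 0.22), the stress kinases Mapk12 and Mapk14, which both fell (-1.70 ± 0.21 and -0.64 ± 0.21), and the intermediate filaments Des and Vim, which both rose (0.70 ± 0.13 and 3.44 ± 0.31). Des stood at -0.25 under median scaling and was not called there (limma adjusted p = 0.384), and the call of Mapk14 was lost without ischemic replicate 3, without replicates 3 and 4, with array brightness as a covariate and under cyclic loess. In 7 pairs at least 1 form was not called: Capn2 (whose probes disagree in sign), Fbp1, Ryr3, Prkag1 and Adss among the other forms, and Actn3 and Flnc among the muscle forms. The spread between arrays was wide for Actn3 (-1.41 ± 0.72, limma adjusted p = 0.112), whose ischemic arrays were all below the non-ischemic ones, and it was called under median scaling, as a mean over its probes and in a fit of the 8 scramble arrays alone. Prkag1 (-0.39 ± 0.18) was called as lower without ischemic replicate 4, under median scaling and with array weights.

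**Figure D3:**
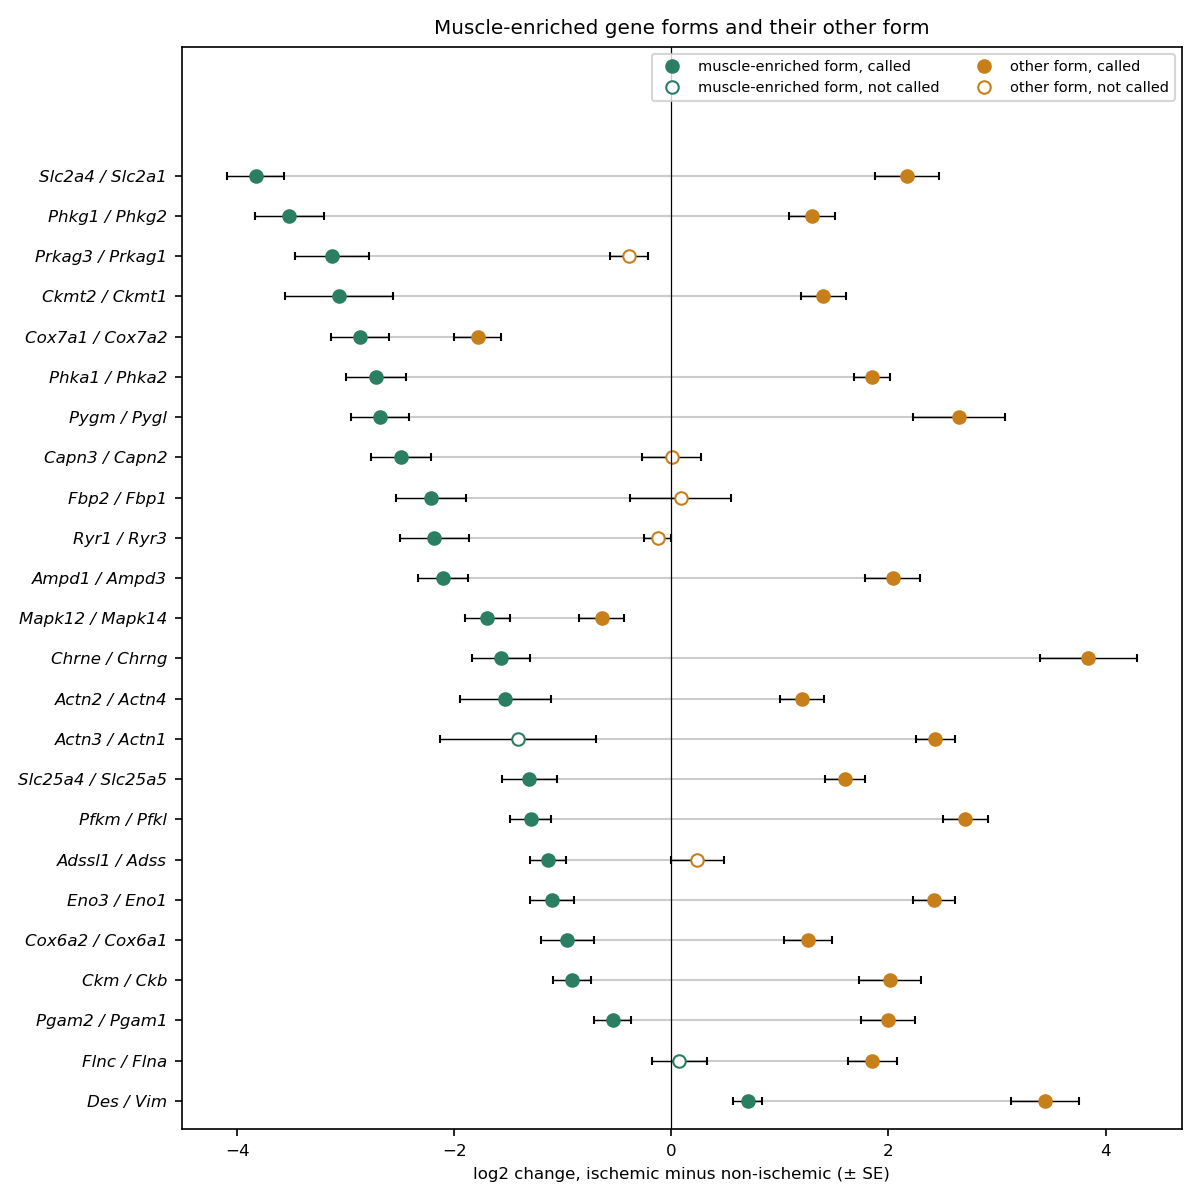
Log2 change from ischemic minus non-ischemic arrays (x axis, with SE) for 24 pairs of a muscle-enriched gene form (green) and its other form (orange); filled points are called and open points are not. In every pair the other form lies to the right of the muscle form, and in 14 pairs they lie on opposite sides of 0 and are both called.

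Other genes of glucose and purine metabolism moved in both directions. Of 30 genes of glucose transport and glycogen metabolism, 16 fell and 12 rose, against 24.6% lower and 27% higher over all genes. Phkb, the shared regulatory subunit of phosphorylase kinase (-2.59 ± 0.31), fell. Hk3 gave 8.47, 8.57, 8.58 and 9.29 in ischemic muscle, against 4.24, 4.45, 4.41 and 4.41 in non-ischemic muscle. This hexokinase of myeloid cells was not detected on any non-ischemic array and was at least 17.9-fold higher in ischemic muscle. Slc2a6, a transporter of leukocytes, was at least 16.9-fold higher, and Tkt, the transketolase of the pentose phosphate pathway, rose by 3.28 on the log2 scale. Of 19 genes of creatine and adenylate metabolism, 9 fell, including adenylate kinase 1, Ak1 (-2.83 ± 0.25), and 6 rose, including the purine salvage enzyme Aprt (2.67 ± 0.16).

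Genes that build and maintain mitochondria fell in several lists. Of 72 mitochondrial ribosomal protein genes, 54 fell and 3 rose (median -0.90). Mrpl42 had 9.53, 9.33, 8.99 and 9.19 on the ischemic arrays, against 11.40, 11.31, 11.63 and 11.83 on the non-ischemic arrays. Mrpl42 had the lowest change of the list, with every ischemic array below the non-ischemic ones (-2.29 ± 0.20, limma adjusted p = 2.46e-08). Mrps28 (-2.14 ± 0.22), Mrps21 (-2.10 ± 0.23) and Mrpl55 (-2.06 ± 0.29) fell without overlap. Of 32 assembly factors of the respiratory chain, 25 fell and none rose (median -0.96), with Ndufaf5, a complex I factor (-2.68 ± 0.26), and Coa6, which serves cytochrome oxidase (-1.89 ± 0.18), as examples. Of 36 genes of mitochondrial protein import, 19 fell and 3 rose, and Immp2l, of the inner membrane peptidase, fell most (-2.26 ± 0.22).

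Cofactor synthesis followed. Of 27 genes of coenzyme Q and iron-sulphur cluster synthesis, 19 fell and 2 rose (median -1.24). Coq9 read 8.59, 8.84, 7.96 and 7.93 in ischemic muscle and 11.45, 11.32, 11.10 and 11.26 in non-ischemic muscle. Coq9 encodes a lipid-binding protein of coenzyme Q synthesis, and its arrays did not overlap (-2.95 ± 0.28). Coq10a (-2.65 ± 0.22) fell, and Coq8b, an atypical kinase of the same pathway as Coq9, rose (2.10 ± 0.21). Of 22 genes of branched-chain amino acid catabolism, 17 fell and 3 rose (median -1.16). Pcca, a propionyl-CoA carboxylase subunit (-2.68 ± 0.25), Mcee (-2.21 ± 0.20) and Bckdk, the kinase of the branched-chain dehydrogenase (-1.75 ± 0.21), fell. Bcat1 stood at 7.30, 7.72, 7.48 and 8.14 on the ischemic arrays and at 5.33, 5.55, 4.65 and 4.97 on the non-ischemic arrays. Bcat1, the cytosolic transaminase, rose on every ischemic array (2.54 ± 0.23). The mitochondrial form Bcat2 was not called here (0.38 ± 0.20) and was called higher without ischemic replicate 1.

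Regulators of mitochondrial gene expression mostly fell. The list holds 27 genes, with 17 lower and 1 higher (median -0.94). Perm1 gave 7.96, 6.71, 7.39 and 5.15 in ischemic muscle, against 10.90, 10.67, 11.11 and 11.14 in non-ischemic muscle. Perm1 acts with PGC-1 and ERR proteins in muscle, and its ischemic arrays were all lower although they spread widely (-4.15 ± 0.45). Ppargc1a had 4.58, 4.33, 4.63 and 4.29 on the ischemic arrays, against 6.80, 6.75, 7.33 and 6.98 on the non-ischemic arrays. Ppargc1a encodes the coactivator PGC-1alpha, which drives mitochondrial biogenesis, and its arrays did not overlap (-2.51 ± 0.25). The nuclear receptors Esrrg (-2.85 ± 0.21) and Esrrb (-2.73 ± 0.22) and the mitochondrial transcription factor Tfb2m (-2.42 ± 0.18) fell. Nrf1, a transcription factor for nuclear-encoded respiratory genes, rose (1.68 ± 0.26), and Ppard was not called (0.00 ± 0.19). An extended ERR half-site (TNAAGGTCA, either strand) was in 0 of 25 promoter windows of this list, against 0.97% of the windows of all genes tested, where a window is 250 bases before the start.

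Mitochondrial carriers and clock genes closed the metabolic lists. Of 36 carrier genes of the Slc25 family, 17 fell and 8 rose, against 24.6% lower and 27% higher over all genes. Slc25a25, an ATP and phosphate carrier (-3.37 ± 0.29), and Slc25a12, the aspartate and glutamate carrier (-2.65 ± 0.26), fell, and Slc25a45 (2.49 ± 0.28), Slc25a10, the dicarboxylate carrier (2.14 ± 0.34), and Slc25a1, the citrate carrier (2.12 ± 0.43), rose. Of 16 genes of the circadian clock and its output, 11 fell and 1 rose (median -0.92). Dbp read 8.83, 8.53, 8.54 and 8.42 in ischemic muscle and 11.07, 10.69, 10.70 and 10.91 in non-ischemic muscle. Dbp, an output factor of the clock, was lower on every ischemic array (-2.27 ± 0.28). Rora (-2.53 ± 0.31), Nr1d2 (-2.08 ± 0.26) and Nr1d1 (-2.06 ± 0.33) fell. The labels give no hour of sampling.

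The signalling machinery of leukocytes had the highest median of the 51 lists. Of 30 kinase, adaptor and oxidase genes of leukocytes, 27 rose, none fell and 3 were not called (median 2.92). Vav1 stood at 9.80, 9.68, 10.29 and 10.29 on the ischemic arrays and at 5.02, 5.25, 4.51 and 4.89 on the non-ischemic arrays. Vav1 encodes an exchange factor of blood cells that links receptors to Rac, and its groups did not overlap (5.10 ± 0.22, limma adjusted p = 2.81e-12). Lat2 gave 10.65, 11.07, 11.48 and 10.99 in ischemic muscle, against 5.50, 5.61, 5.63 and 5.07 in non-ischemic muscle. Lat2, a transmembrane adaptor of myeloid and B cells, changed by 5.60 ± 0.28, and Coro1a, an actin-binding protein of leukocytes, by 4.29 ± 0.20. Laptm5 had 12.31, 12.97, 13.14 and 12.81 on the ischemic arrays, against 9.28, 9.07, 8.76 and 8.54 on the non-ischemic arrays. Laptm5, a lysosomal membrane protein of leukocytes, was higher on each ischemic array as well (3.89 ± 0.21). Ptpn6, the inhibitory phosphatase SHP-1, rose (4.10 ± 0.23), and the probe for Syk stood at 0.11 ± 0.10 and was not called. Of the markers given above, 7 of 10 for macrophages and 5 of 7 for neutrophils also rose. Their part in the rise of this list was not tested.

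Parts of the windows of 2 leukocyte genes are shown because they hold a PU.1-like letter string, and PU.1 is the Ets factor that myeloid cells use. Capitals mark GAGGAAG or its complement. The string, searched on both strands, was in 7 of 25 windows of the list (28%), against 12.9% of the 9695 genes tested that have a promoter in the RefSeq table.
Vav1 (chr17:57279049-57279099, plus strand, GRCm38.p6): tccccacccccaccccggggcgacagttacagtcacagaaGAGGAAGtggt
Laptm5 (chr4:130913237-130913315, plus strand, GRCm38.p6): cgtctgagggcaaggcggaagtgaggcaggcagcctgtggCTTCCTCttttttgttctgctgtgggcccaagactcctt
A match in a window is a description and not a binding site.

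Clearance genes of phagocytes rose beside them. Of 24 genes of clearance and lipid handling, 19 rose and none fell (median 1.63). Trem2 read 7.62, 8.85, 9.32 and 8.49 in ischemic muscle and 4.41, 4.72, 4.22 and 4.60 in non-ischemic muscle. Trem2 encodes a lipid receptor of macrophages, and no non-ischemic array reached an ischemic one (4.08 ± 0.28). Stab1, a scavenger receptor, rose too (4.32 ± 0.24). Cd36 was not called (0.00 ± 0.13, limma adjusted p = 0.986) and was not detected on any of the 8 arrays. Of 8 Fc receptor genes, 6 rose, with Fcgr4 at 4.30 ± 0.30, Fcgr3 at 3.84 ± 0.38 and the inhibitory receptor gene Fcgr2b at 2.49 ± 0.30. Of 40 genes of lysosomal hydrolases and the proton pump, 26 rose and 5 fell, with Gusb (3.27 ± 0.20) and Man2b1 (2.88 ± 0.22) among the first and the pump subunit genes Atp6v0e2 (-1.84 ± 0.20) and Atp6v1g1 (-1.73 ± 0.21) among the second. Under median scaling 13 of them rose and 8 fell. Of 19 cathepsin and inhibitor genes, 12 rose, including Ctsz (3.59 ± 0.24), the asparaginyl protease gene Lgmn (3.48 ± 0.24) and the cathepsin inhibitor gene Cstb (3.57 ± 0.13), and Ctsf fell (-1.59 ± 0.21).

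Genes of inflammatory ligands, receptors and sensors rose more often than they fell in 3 lists. Of 28 CC and CXC chemokine and receptor genes tested, 13 rose, 3 fell and 12 were not called. Cxcl1 stood at 9.76, 9.57, 9.17 and 10.86 on the ischemic arrays and at 5.22, 4.85, 4.30 and 4.24 on the non-ischemic arrays. Cxcl1, a neutrophil attractant, was higher on each ischemic array (5.19 ± 0.44). Ccl9 (4.74 ± 0.35) and Cxcl16 (3.22 ± 0.25) rose, and Ccl11, the eosinophil attractant eotaxin, fell (-1.75 ± 0.26). Of 14 genes of interleukin-1 and the inflammasome, 11 rose and none fell. Il1b gave 8.11, 7.36, 7.92 and 9.49 in ischemic muscle, against 4.69, 4.34, 4.32 and 4.33 in non-ischemic muscle. The groups of this cytokine gene did not overlap (3.80 ± 0.36). The receptor antagonist gene Il1rn was at least 8-fold higher and Il1rl1, the receptor of interleukin-33, at least 6.06-fold higher. On the array means of the interleukin-1 list, ischemic replicate 4 stood highest at 6.9, against 6.2 to 6.25 on the other ischemic arrays and 4.71 to 4.79 on the non-ischemic arrays. Of 38 Toll-like receptor, TNF and NF-kB genes, 22 rose and 3 fell, with Tlr13 (3.41 ± 0.24), Myd88 (2.97 ± 0.15) and Nfkbiz (2.75 ± 0.29) higher and Traf2 (-1.43 ± 0.18) lower.

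Antigen presentation genes, complement genes, and S100 and annexin genes were read as further lists. Of 26 antigen presentation genes, 16 rose and none fell (median 1.04), and H2-DMb1, which loads peptides on class II molecules, rose (1.93 ± 0.23). Of 16 complement genes, 6 rose and 3 fell, against 27% higher and 24.6% lower over all genes. With array brightness as a covariate or without ischemic replicates 3 and 4 there were 3 in each direction. Cfp had 12.20, 12.19, 12.41 and 12.65 on the ischemic arrays, against 8.76, 8.40, 8.28 and 8.15 on the non-ischemic arrays. Cfp encodes properdin, which stabilises the alternative pathway convertase, and it was higher on every ischemic array (3.96 ± 0.19), while the protective membrane protein genes Cd55 (-1.27 ± 0.30) and Cd59a (-0.98 ± 0.20) fell. Of 21 S100 and annexin genes, 16 rose, including S100a11 (2.92 ± 0.26) and Anxa4 (2.43 ± 0.23). S100a1 read 8.27, 8.72, 7.15 and 8.07 in ischemic muscle and 10.61, 10.81, 9.64 and 11.06 in non-ischemic muscle. S100a1, the S100 protein of striated muscle, was the 1 member that fell (-2.48 ± 0.39), with all ischemic arrays below the non-ischemic ones.

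Heme and iron genes moved in both directions (8 higher and 7 lower of 29), in shares close to the 27% higher and 24.6% lower over all genes. Slc11a1 stood at 11.25, 11.49, 11.77 and 11.93 on the ischemic arrays and at 8.27, 8.30, 8.14 and 8.06 on the non-ischemic arrays. Slc11a1 encodes the metal transporter of phagosomes, and its groups stood far apart (3.42 ± 0.16, limma adjusted p = 6.35e-12). Blvrb, a biliverdin reductase, rose (1.97 ± 0.27). Alas1 gave 9.87, 9.60, 10.01 and 9.30 in ischemic muscle, against 11.43, 11.54, 11.54 and 11.24 in non-ischemic muscle. Alas1, the first enzyme of heme synthesis, was lower on every ischemic array (-1.74 ± 0.18), and so was Uros, of the same pathway (-1.51 ± 0.17). The heavy chain ferritin gene Fth1 was not called here (0.00 ± 0.10, limma adjusted p = 0.982) and was called higher under cyclic loess (1.30).

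Genes of DNA replication and mitosis rose. Of 51 genes of DNA replication and nucleotide synthesis, 32 rose, 5 fell and 14 were not called. The median change was 1.02, and 0.42 without background correction. Uhrf1 had 9.99, 9.66, 9.66 and 10.14 on the ischemic arrays, against 4.65, 4.83, 4.73 and 4.72 on the non-ischemic arrays. Uhrf1, which brings the maintenance methyltransferase to newly made DNA, stood above its non-ischemic values on each ischemic array (5.13 ± 0.21, limma adjusted p = 1.99e-12). Mcm5 read 9.33, 9.55, 9.03 and 9.72 in ischemic muscle and 5.51, 5.23, 5.50 and 4.68 in non-ischemic muscle. The product is a subunit of the replicative helicase, and its groups did not overlap (4.18 ± 0.24). Chaf1b, of the chromatin assembly factor (3.10 ± 0.25), rose and the origin recognition gene Orc3 fell (-1.45 ± 0.23). Of 53 genes of the kinetochore, spindle and cytokinesis with a probe, 40 passed the detection filter, and of these 32 rose and 2 fell. Members detected only in ischemic muscle passed the filter through those arrays, so the share of rises depends partly on it. The median change was 1.06, or 0.91 with genes undetected in a group at their bound, and 0.42 without background correction. Anln (4.14 ± 0.20), Kif22 (3.88 ± 0.20) and Cenpa (3.59 ± 0.18) rose, and Cdca8 and Plk1 were undetected on all non-ischemic arrays and at least 14.9-fold and 12.7-fold higher.

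Parts of the promoter windows of 5 of these genes are shown because they hold the letter strings that E2F, the DREAM complex and NF-Y are known to bind at cell cycle genes. In each window capitals mark only the string named beside its gene: TTCCCGC or TTGGCGC for E2F, TTTGAA for the CHR element and CCAAT for NF-Y, or the complement. The parts shown for Uhrf1 and Kif22 also hold a CCAAT string, on either strand, which is left in lower case. Over the whole window of 250 bases, Kif22 holds 2 CHR strings and Cdca8 holds 3 CCAAT strings, more than are shown.
Uhrf1, E2F-like (chr17:56303249-56303335, plus strand): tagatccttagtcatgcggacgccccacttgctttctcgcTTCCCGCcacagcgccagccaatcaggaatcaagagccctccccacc
Mcm5, E2F-like (chr8:75109320-75109406, plus strand): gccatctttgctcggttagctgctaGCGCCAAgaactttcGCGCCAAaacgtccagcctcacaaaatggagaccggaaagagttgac
Kif22, CHR (chr7:127042421-127042477, minus strand): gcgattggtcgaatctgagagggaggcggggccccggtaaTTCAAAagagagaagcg
Cdca8, CCAAT (chr4:124936918-124936968, minus strand): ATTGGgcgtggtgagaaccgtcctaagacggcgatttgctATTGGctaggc
Plk1, CCAAT (chr7:122159381-122159434, plus strand): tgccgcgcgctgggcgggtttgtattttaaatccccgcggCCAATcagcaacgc
All windows are from RefSeq on GRCm38.p6. An E2F-like string was in 13 of 42 windows of the replication list (31%), against 10.9% of all genes tested with a promoter. CHR was in 10 of 36 windows of the kinetochore list (27.8%, against 13.3%) and CCAAT in 22 of 36 (61.1%, against 39.9%). Both strands were searched, and none of the strings contains another.

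Genes of cell cycle control and of the early stress response rose more often than they fell. Of 29 cell cycle inhibitor, p53 and E2F genes, 13 rose and 5 fell. Cdkn1a stood at 10.03, 9.44, 8.96 and 9.54 on the ischemic arrays and at 6.71, 6.95, 6.18 and 6.52 on the non-ischemic arrays. Cdkn1a encodes the inhibitor p21, and every ischemic array was above the non-ischemic ones (2.90 ± 0.39). E2f1 gave 8.66, 8.62, 8.80 and 8.89 in ischemic muscle, against 4.64, 5.06, 5.08 and 4.59 in non-ischemic muscle. E2f1, the activator of replication genes, did not overlap either (3.90 ± 0.20), and the mitotic factor gene Foxm1 rose (2.10 ± 0.17). E2f6, a repressor of the family, fell (-1.92 ± 0.19), as did Tfdp2, a partner of E2F proteins (-1.83 ± 0.19). Of 30 immediate early and stress transcription factor genes, 19 rose and none fell (median 1.21, or 0.52 without background correction). Socs3 had 9.53, 9.07, 9.45 and 10.43 on the ischemic arrays, against 6.61, 5.53, 5.86 and 6.08 on the non-ischemic arrays. Socs3, the feedback inhibitor of cytokine receptors, was higher on each ischemic array (3.60 ± 0.37), Junb rose (3.09 ± 0.25) and Sox11 was at least 7.03-fold higher, while Dusp1 (0.00 ± 0.28) and Myc (0.08 ± 0.13) were not called.

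**Figure D4:**
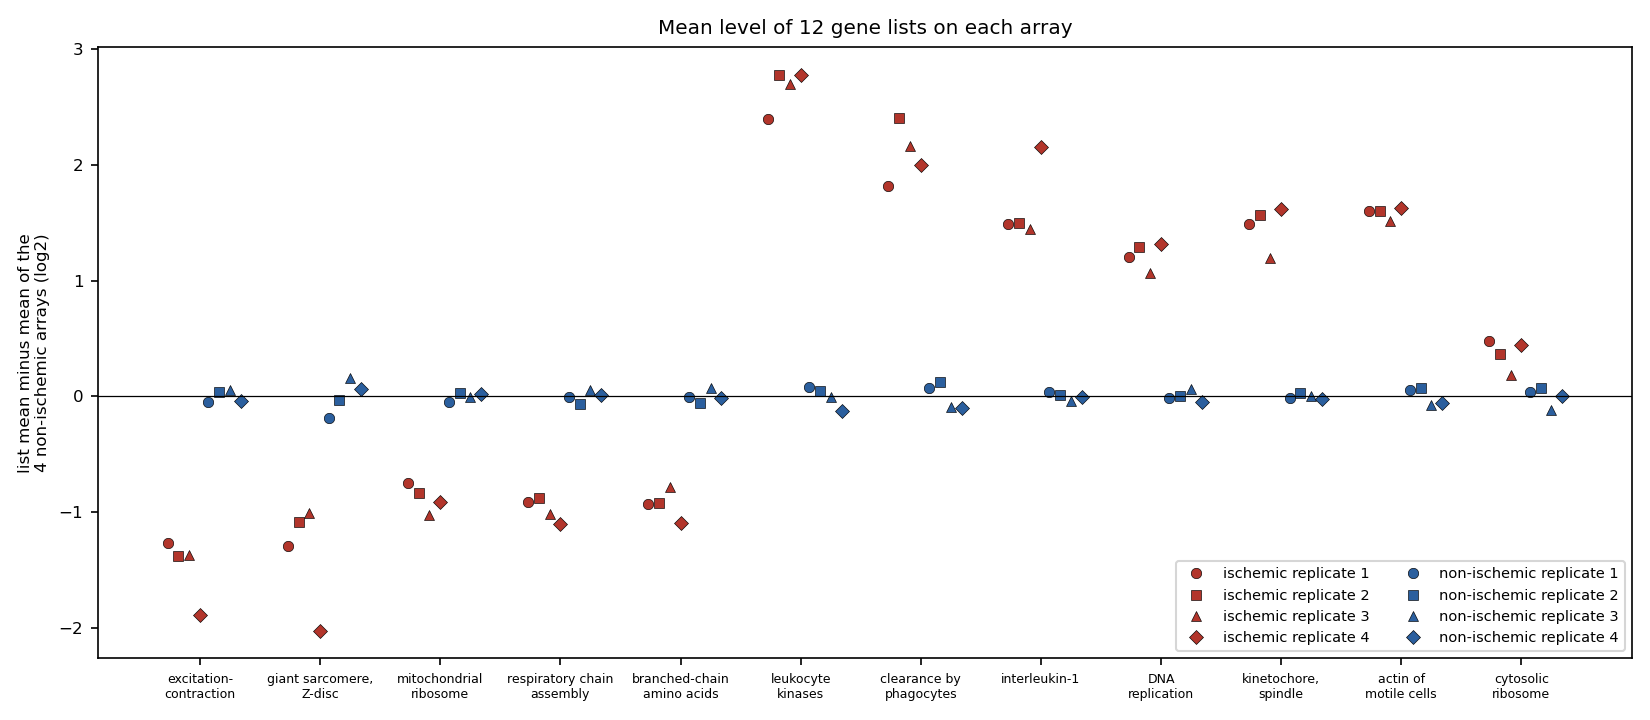
Mean normalized log2 intensity of 12 gene lists on each array (y axis, as the difference from the mean of the 4 non-ischemic arrays), with ischemic arrays to the left of non-ischemic arrays within each list; symbols mark the replicate number. The groups do not overlap in any of these lists (the cytosolic ribosomal list had more lower than higher calls under median scaling), and ischemic replicate 4 is lowest for the lists of excitation-contraction coupling and of giant sarcomere and Z-disc genes.

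For the lists of protein and RNA production, counts in each direction depended on the scaling. Of 58 cytosolic ribosomal protein genes, 29 rose and 3 fell (median 0.33), but under median scaling 3 rose and 26 fell (median -0.38, against 0.04 over all genes there). Rpl3 read 13.34, 13.35, 13.54 and 13.35 in ischemic muscle and 11.22, 11.10, 10.57 and 10.84 in non-ischemic muscle. Rpl3 had the highest change of the list (2.46 ± 0.18), with no overlap. Of 52 spliceosome and splicing factor genes, 24 rose and 7 fell, against 11 and 12 under median scaling, with Hnrnpl (2.89 ± 0.23) and Srsf9 (1.90 ± 0.13) highest. Of 37 genes of ribosome biogenesis, 12 rose and 3 fell, against 6 and 4 under median scaling, with Rrp1b (3.42 ± 0.32) and Npm3 (2.11 ± 0.20) higher and Nop10 lower (-1.90 ± 0.30). Of 41 proteasome genes, 12 rose and 9 fell, close to the 27% higher and 24.6% lower over all genes. Under median scaling 2 rose and 23 fell. The immunoproteasome subunit genes Psmb8 (1.45 ± 0.29) and Psmb9 (1.38 ± 0.21) were the highest of the proteasome list.

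Autophagy genes fell more often than they rose (16 lower and 5 higher of 28, median -0.58). Map1lc3a stood at 8.03, 7.99, 8.31 and 7.77 on the ischemic arrays and at 9.58, 9.98, 10.17 and 10.58 on the non-ischemic arrays. This LC3 protein coats the autophagosome membrane, and its groups did not overlap (-2.05 ± 0.23). Map1lc3b (-1.57 ± 0.27) and Atg9a, a membrane protein of early autophagosomes (-1.78 ± 0.25), fell, and Uvrag rose (0.90 ± 0.16).

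The cytoskeleton of motile cells rose broadly. Of 42 genes, 32 rose and 3 fell (median 1.65). Cotl1 gave 11.31, 11.52, 11.74 and 11.50 in ischemic muscle, against 7.11, 6.84, 6.44 and 6.01 in non-ischemic muscle. Cotl1 encodes coactosin-like protein, which binds actin filaments, and its ischemic arrays were all higher (4.92 ± 0.20, limma adjusted p = 1.68e-12). Capg, a capping protein of macrophages (4.41 ± 0.31), Nckap1l, the blood cell form of a WAVE complex subunit (4.42 ± 0.19), and Arpc1b, of the Arp2/3 complex (3.71 ± 0.23), rose. Rdx was not called (-0.16 ± 0.16). Of 22 integrin genes, 5 rose and 5 fell, close to the shares over all genes, with Itga5, the fibronectin receptor subunit (2.91 ± 0.22), and Itgb7 (2.82 ± 0.37) highest and Itgb6 lowest (-1.48 ± 0.28).

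Genes of collagen processing mostly rose, and collagen chain genes moved in both directions. Of 30 collagen chain genes tested, 11 rose, 6 fell and 13 were not called, against 27% higher and 24.6% lower over all genes, and of 27 genes of collagen processing and small proteoglycans, 18 rose and 1 fell. Col18a1 had 10.64, 10.30, 10.79 and 10.90 on the ischemic arrays, against 7.93, 7.75, 7.47 and 7.46 on the non-ischemic arrays. Col18a1, a basement membrane collagen, was the highest of the chains (3.01 ± 0.45), and Col4a1, also of basement membranes, rose (2.03 ± 0.28). Col22a1 read 5.78, 4.22, 4.97 and 4.56 in ischemic muscle and 9.12, 9.20, 9.07 and 8.66 in non-ischemic muscle. Col22a1, a collagen of the junction between muscle and tendon, was the lowest (-4.13 ± 0.34), and Col7a1 fell (-1.86 ± 0.30). Among the processing genes, Bgn, the proteoglycan biglycan (2.76 ± 0.23), Fkbp10, a collagen chaperone (2.64 ± 0.31), and Bmp1, which cleaves procollagen (2.55 ± 0.26), rose.

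Proteases, their inhibitors and clotting factors rose more often than they fell. Of 35 metalloproteinase and inhibitor genes tested, 18 rose and 3 fell. Timp1 stood at 11.49, 11.32, 11.82 and 12.46 on the ischemic arrays and at 6.74, 7.08, 6.46 and 6.45 on the non-ischemic arrays. The inhibitor gene Timp1 was higher on every ischemic array (5.09 ± 0.39). Timp4 gave 4.90, 5.61, 5.74 and 5.07 in ischemic muscle, against 8.12, 8.03, 7.44 and 8.14 in non-ischemic muscle. Timp4, the inhibitor most abundant in striated muscle and heart, was lower on every ischemic array (-2.60 ± 0.28). Adamts4, an aggrecanase, was at least 18.1-fold higher. Of 26 genes of fibronectin and matricellular proteins, 15 rose and none fell, with Thbs2 (3.13 ± 0.35), Tgfbi (2.92 ± 0.22) and Fbn1 (2.36 ± 0.41) as examples. An AP-1 string (TGANTCA, either strand) was in 1 of 16 promoter windows of this list (6.25%), against 6.05% of all genes tested with a promoter. Of 17 coagulation and fibrinolysis genes, 11 rose and 1 fell. F13a1 had 10.11, 10.64, 10.19 and 9.74 on the ischemic arrays, against 7.47, 7.01, 6.48 and 6.91 on the non-ischemic arrays. F13a1, the fibrin-crosslinking factor that macrophages also make, did not overlap between groups (3.21 ± 0.33), and F10 (3.84 ± 0.65) and Pros1, of the anticoagulant protein S (2.27 ± 0.17), rose.

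Growth factor genes moved in both directions, in shares not far from the 27% higher and 24.6% lower over all genes. Of 35 TGF-beta, BMP and activin genes, 7 rose and 10 fell (median -0.12), against 4 and 12 under median scaling. Tgfb1 read 7.07, 7.48, 7.31 and 7.50 in ischemic muscle and 5.50, 5.79, 5.21 and 5.11 in non-ischemic muscle. Tgfb2 stood at 4.54, 4.40, 4.42 and 4.40 on the ischemic arrays and at 5.75, 6.37, 6.55 and 5.93 on the non-ischemic arrays. The groups overlapped for neither ligand gene, and the changes were 1.94 ± 0.21 for Tgfb1 and -1.71 ± 0.18 for Tgfb2. Id2, a target of BMP signals, rose (2.91 ± 0.34), and the receptor genes Bmpr1a (-1.63 ± 0.26) and Acvr2b, a myostatin receptor (-1.36 ± 0.18), fell. Of 39 genes of oxygen sensing and angiogenic ligands and receptors, 13 rose and 9 fell, but under median scaling 8 rose and 12 fell. Angpt2 gave 9.18, 8.80, 9.79 and 10.09 in ischemic muscle, against 6.46, 6.37, 6.79 and 6.66 in non-ischemic muscle. Angpt2, the ligand that loosens vessel walls, rose on every ischemic array (2.90 ± 0.30). The apelin receptor gene Aplnr (2.55 ± 0.44), Pdgfb (1.87 ± 0.27) and Hgf, which activates satellite cells (1.78 ± 0.25), rose, and Fgf1 fell (-1.59 ± 0.21).

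The response after scramble was set against that after anti-miR-210, which rests on 8 other arrays and shares none. Limma called 7445 genes (50.9%) in the anti-miR-210 response, 6186 genes in both with the same direction and 6 with opposite directions. The log2 changes correlated at 0.943 across the 14629 genes, which are not independent replicates and share normalization. The difference of the 2 responses was called for 3 genes (0.0205%), and 1202 genes had an unadjusted p under 0.05 for it. The count was 386 under median scaling. It was 0 with replicate numbers as a block, with the mean log2 intensity of each array as a covariate, and without the 4 arrays that carried liver transcripts.

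Each of the 3 genes had the higher fitted change after scramble, and none of them was called in those last 3 settings. Card14 and Sftpd were undetected on all scramble non-ischemic arrays, so that for both only a bound holds after scramble, and their fitted responses and differences are not exact values. Card14 had 6.40, 6.01, 6.09 and 6.19 on the ischemic arrays, against 4.20, 4.38, 4.48 and 4.26 on the non-ischemic arrays. Card14 encodes a scaffold protein of NF-kB signalling known from skin, and it was at least 3.04-fold higher in ischemic muscle than in non-ischemic muscle after scramble. Its fitted response was 1.84 ± 0.12 after scramble and 0.54 ± 0.12 after anti-miR-210, with a fitted difference of 1.31 ± 0.17 (limma adjusted p = 0.00743). Sftpd read 7.20, 6.39, 7.03 and 7.35 in ischemic muscle and 4.15, 4.23, 4.23 and 4.15 in non-ischemic muscle. Sftpd encodes surfactant protein D, a collectin of innate defence, and it was at least 5.38-fold higher in ischemic muscle than in non-ischemic muscle after scramble. Its fitted response was 2.80 ± 0.24 after scramble and 0.58 ± 0.24 after anti-miR-210, with a fitted difference of 2.22 ± 0.34 (limma adjusted p = 0.017). Trmt6 stood at 5.68, 5.88, 5.66 and 6.28 on the ischemic arrays and at 4.92, 5.31, 5.38 and 5.10 on the non-ischemic arrays. Trmt6, a subunit of a tRNA methyltransferase, changed by 0.70 ± 0.15 after scramble and by -0.71 ± 0.15 after anti-miR-210, a difference of 1.41 ± 0.22 (limma adjusted p = 0.017). Another Card14 probe had a lower change after scramble (0.44). The count of 3 rose to 63 without anti-miR-210 ischemic replicate 4, to 9 without scramble ischemic replicate 2 and to 5 without anti-miR-210 ischemic replicate 1, and it was 1 without scramble non-ischemic replicate 1 or 4, anti-miR-210 ischemic replicate 2 or anti-miR-210 non-ischemic replicate 2 or 3. The anti-miR-210 ischemic arrays had mean intensities of 193.3 to 264.8, against 123.6 to 183.9 for the scramble ischemic arrays. With the mean log2 intensity of each array as a covariate, the rise of Trmt6 after scramble was not called.

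**Figure D5:**
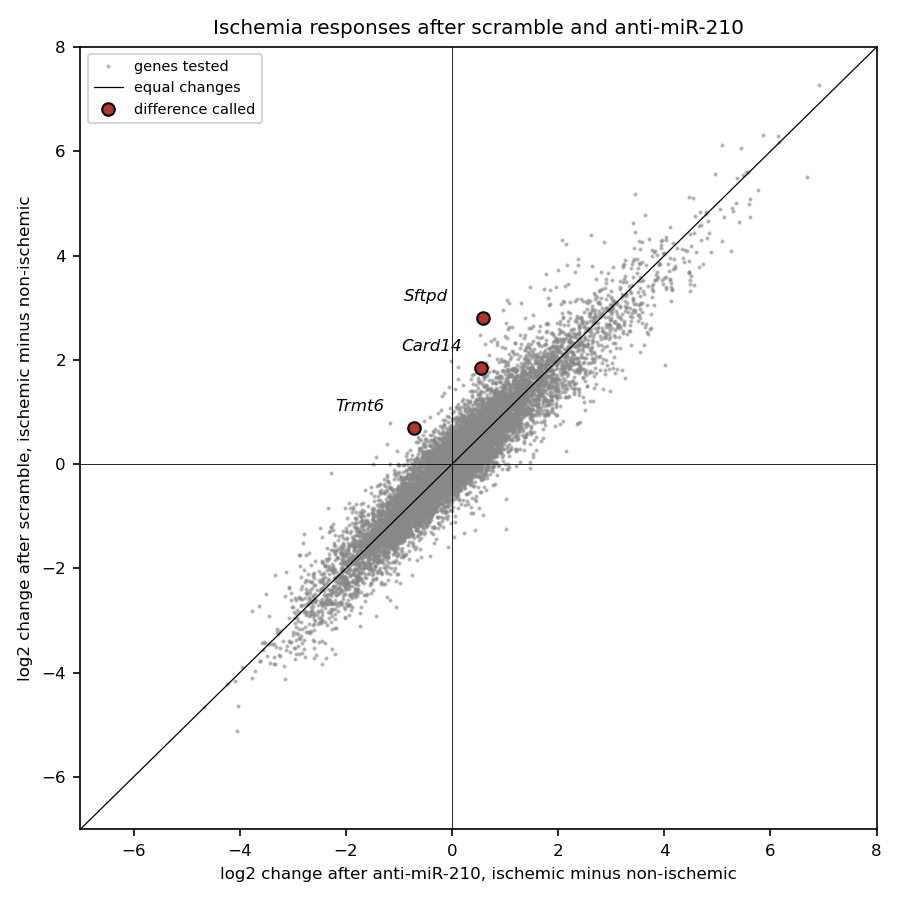
Log2 change of each of 14629 genes from ischemic minus non-ischemic arrays after scramble (y axis) against that after anti-miR-210 (x axis); the line marks equal changes. Card14, Sftpd and Trmt6, the 3 genes with a called difference, lie above the line.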

How the data were processed

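Muscle RNA was measured on 19 single-colour Illumina bead arrays. The authors deposited a table of non-normalized linear intensity per probe, each paired with its detection p-value (per the file headers), and a series matrix of processed values; these are also linear intensity, matched in the data to quantile normalization without background subtraction, and the authors did not deposit log2 values. Of 45281 probes, 21058 were kept, those whose detection p was below 0.05 on 3 or more arrays, and 40 with date-corrupted names were dropped. Background was corrected with neqc (limma 3.58.1, R 4.3.3, offset 16), with negative controls inferred from the deposited detection p-values, followed by quantile normalization and log2. Symbols were updated through RefSeq: of 14629 genes tested, 9734 had a current symbol, 2506 an updated one and 2389 kept that of the table. Each gene was read by its probe with the highest mean, and for named genes probes that disagree in sign are stated. Of 88 named genes with more than 1 probe, 1 had such probes and 53 had probe changes more than 1 apart on the log2 scale. Among all called genes, 2872 had several probes, and all probes had the same sign for only 2215 of these.

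A linear model with 5 group means was fitted and moderated (limma), p-values were adjusted by Benjamini and Hochberg over all genes, and genes with an adjusted p under 0.05 were called. The number of arrays limits the precision. A gene undetected on all arrays of a group has only a bound, given as at least N-fold: the mean of the other group over the higher of the lowest detected signal and the probe's own value. Data for the ischemic against non-ischemic comparison were simulated on 14629 genes as independent normal noise on already normalized values, with few genes changed. All 50 genes raised and all 50 lowered by 2 on the log2 scale were called. So were 39 of 50 raised and 42 of 50 lowered by 1, with 12 false calls. Normalization, probe choice and signal near background were not simulated. The rates need not hold for the data, where 51.6% of genes were called. The members and lists were chosen with earlier results of these data known. Genes named were drawn from the 12 highest and 12 lowest changes without overlap, up to 5 leading, 3 opposite, 2 most abundant and 2 least changed members of each list, all cell markers and the leading differences between responses. Alternatives covered scaling, background, filter, probes, covariates, weights and left-out arrays. Array brightness as a covariate was the mean log2 intensity of each array over all probes before normalization. Some genes are counted in their lists but not reported here by name. Figures were drawn with matplotlib 3.10.9 (Python 3.11.15).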

Additional observations from a re-analysis of the deposited data

Results flagged for a closer look

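In 33 of 608 sets of 4 arrays (5.43%), a single array stood apart from the other three of its group, with a gap to the nearest, as a share of the group's whole range, past Dixon's critical value. Chance alone flags about 1 in 20 such sets. The values below are these ratios.

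Ischemic replicate 1 was the highest array of its group for Ryr3 (0.883) and Tgfb2 (0.872). Ischemic replicate 2 was the highest array of its group for monocyte and macrophage markers (0.883). Ischemic replicate 3 was the highest array of its group for Rpl3 (0.943). Ischemic replicate 4 was the highest array of its group for Hk3 (0.858), Il1rl1 (0.900), Myc (0.909), the list interleukin-1 and inflammasome (0.924) and the list immediate early and stress transcription factors (0.851). Ischemic replicate 1 was the lowest array of its group for Fcgr4 (0.854) and mast cell markers (0.902). Ischemic replicate 2 was the lowest array of its group for H2ac7 (0.948) and endothelial cell markers (0.941). Ischemic replicate 3 was the lowest array of its group for Eno1 (0.879) and the list of cell cycle inhibitors, p53 and E2F genes (0.844). Ischemic replicate 4 was the lowest array of its group for Cacna1s (0.931) and Pfkm (0.884).

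Non-ischemic replicate 1 was the highest array of its group for F10 (0.839), Il1b (0.930), Ndufaf5 (0.839), Tnnt3 (0.906) and hepatocyte markers (0.891). Non-ischemic replicate 2 was the highest array of its group for Aprt (0.856). Non-ischemic replicate 3 was the highest array of its group for Ccr2 (0.869), Cd36 (0.879) and Itgam (0.938). Non-ischemic replicate 4 was the highest array of its group for Aqp4 (0.830). Non-ischemic replicate 1 was the lowest array of its group for Atp6v1g1 (0.870) and the list neuromuscular junction (0.942). Non-ischemic replicate 3 was the lowest array of its group for Timp4 (0.834). Non-ischemic replicate 4 was the lowest array of its group for Cacna1s (0.842), Fbn1 (0.918) and Rrp1b (0.843).

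The fitted response to ischemia after scramble minus that after anti-miR-210 was 1.31 ± 0.17 for Card14, 1.41 ± 0.22 for Trmt6 and 2.22 ± 0.34 for Sftpd (log2, limma adjusted p = 0.00743, 0.017 and 0.017; 4 arrays in each of 4 groups). No gene was called for this difference with replicate numbers as a block, with array brightness as a covariate or without the arrays that carried liver transcripts. Card14 and Sftpd were undetected on all scramble non-ischemic arrays, so their differences are not exact values. Hepatocyte markers, outside the comparison, averaged 7.67, 9.43 and 11.18 on the 3 untreated arrays, against 4.5 to 4.97 on the ischemic arrays after scramble. Untreated muscle enters the fit only through the shared estimate of spread and the normalization.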

How the results depend on the processing

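The count of genes called, 7545, ranged over 24 alternatives from 5613 with array brightness as a covariate, 5465 of them shared in the same direction, to 7846 with array weights. Leaving out each array of the comparison gave 6980 to 7254. Genes called with at least a 2-fold change, 4110 here, were 2276 without background correction and 2498 in the authors' series matrix values; the cause was not tested. Of 236 genes named, each under the alternatives, calls were lost 13 times and gained 14 times with the sign kept. Des lost its call with a change of sign, at -0.25 under median scaling, where the median of all genes was 0.04. Calls gained with a change of sign were not counted. Without background correction the medians of 37 of 51 gene lists were more than 1.5 times smaller in size and none changed sign. Of 2448 alternative values for list counts, 150 moved by over 1.5 times. Under median scaling the mean difference of marker lists was -1.52 for muscle fibres and 0.23 for T and NK cells, against -0.85 and 0.09 in the main fit. It was 0.84 for endothelial cells and -0.0859 for fibroblasts, against 1.22 and 0.47, so that of fibroblasts changed sign. The cause was not tested.

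The difference between the responses was called for 386 genes under median scaling, 9 with array weights, 1 without the untreated arrays, 0 without the arrays carrying liver transcripts (a setting added after seeing the data, as was leaving out the 2 dimmest ischemic arrays) and 0 with array brightness as a covariate; the cause was not tested. Leaving out each array gave 1 to 63. With replicate numbers as a block it was called for 0 genes and the ischemia response for 7507. Same-numbered arrays deviated together at 0.05 to 0.17 and each array correlated best with its own number, a hint from the data only, as the labels do not pair them. In limma's main fit 1202 genes had an unadjusted p under 0.05 for the difference. Signal near background limits genes undetected in a group to bounds.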

Other observations

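Of 23 Notch pathway genes, 6 rose and 5 fell in ischemic muscle (limma, adjusted p under 0.05), against 27% higher and 24.6% lower over all genes. Notch1 gave 7.57, 6.72, 7.66 and 7.37 in ischemic muscle, against 5.54, 5.86, 5.86 and 6.05 in non-ischemic muscle. The receptor gene changed by 1.51 ± 0.24, with every ischemic array above the non-ischemic ones. Mfng, a glycosyltransferase that tunes Notch for its ligands, rose (1.36 ± 0.28). Aph1a (-2.65 ± 0.26) and Psenen (-1.37 ± 0.24), subunits of the gamma-secretase that cleaves Notch, fell. Of 19 genes of insulin-like growth factors and insulin signalling, 7 rose and 4 fell, not far from the shares over all genes. Under median scaling 2 rose and 5 fell. Igfbp3 had 8.40, 7.59, 7.01 and 8.41 on the ischemic arrays, against 5.61, 5.62, 5.47 and 5.88 on the non-ischemic arrays. Igfbp3, the main carrier of insulin-like growth factors in blood, did not overlap between groups (2.21 ± 0.39), and Igfbp4, a carrier that restrains them, rose (2.06 ± 0.27). The insulin receptor gene Insr (-1.09 ± 0.16) and its adaptor gene Irs2 (-1.05 ± 0.19) fell.

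Of 21 genes of cytosolic aminoacyl-tRNA synthetases and their scaffold, 7 fell and 3 rose, against 24.6% lower and 27% higher over all genes. Under median scaling 13 fell and 2 rose. Aimp2 read 8.65, 7.64, 7.41 and 7.47 in ischemic muscle and 11.30, 11.25, 10.92 and 11.10 in non-ischemic muscle. Aimp2, a scaffold of the multisynthetase complex, was lower on every ischemic array (-3.35 ± 0.30). Eprs, for glutamate and proline, fell (-1.65 ± 0.25) and Farsa, for phenylalanine, rose (1.05 ± 0.21). Of 21 cholesterol synthesis genes, 5 rose and 3 fell, in shares no higher than those over all genes. Under median scaling 5 rose and 5 fell, and with array brightness as a covariate 2 rose and 4 fell. Of 15 chaperonin, prefoldin and related genes, 4 rose and 3 fell, close to the shares over all genes, but under median scaling 1 rose and 8 fell. The cytosolic chaperone gene Hsp90aa1 rose (1.46 ± 0.32).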
